A study of Homo sapiens with 8 samples.

Results

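The genes described here are 10 imprinted genes that govern growth: PLAGL1, DLK1, MEG3, H19, IGF2, CDKN1C, PEG3, PEG10, MEST and NNAT. They were followed on 8 Affymetrix expression arrays of human embryonic stem cells, which per the labels were of the established H9 line, grown in mTeSR medium. The cells were undifferentiated or had formed embryoid bodies, aggregates in which pluripotent cells differentiate, and ethanol was given at 0 or 20 mM over 24 h to either stage. Each of the 4 groups has 2 arrays, whose labels name no separate cultures, so p-values measure only how far these arrays spread. The age of the embryoid bodies is not given in the sources used here. A gene was read from probe sets annotated to it alone, and its main value came from the one that was brightest on average over all 8 arrays. By this rule 8 of the 10 genes had 26 probe sets of their own, out of 19775 genes with such a probe set on the array. H19 and IGF2 were covered only by probe sets that also name another gene, and their values are given as those of the shared probe sets.

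An imprinted gene is expressed mainly from the chromosome inherited from 1 parent, because a DNA methylation mark set in the egg or the sperm is kept through the divisions of the embryo. Such genes lie in clusters, where 1 marked region controls several coding and noncoding neighbours. Many paternally expressed members, among them IGF2, DLK1, MEST, PEG3 and PEG10, promote growth of the fetus or placenta, while maternally expressed members such as CDKN1C and H19 restrain it. Array signals add up RNA from both parental copies, so none of the values below tells the alleles apart.

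RefSeq start-site windows in the GRCh38.p14 build were at hand for 4 of the 10 genes, PLAGL1, MEST, MEG3 and H19. Each window runs from 250 bases before a start site to 50 after it. The windows of PLAGL1, MEST and MEG3 are shown, 5′ to 3′ on the gene's strand with every CpG in capitals, because the methylation marks of imprinted clusters sit on CpG-rich sequence and these 3 held more CpG than the H19 window. For each gene the window with the most CpG among its listed starts was taken. The first is chr6:144008210-144008509 on the minus strand and serves PLAGL1 and the noncoding gene HYMAI alike, whose start lies 0 bases away. The second is chr7:130491835-130492134 on the plus strand, and the third chr14:100825858-100826157 on the plus strand.
PLAGL1 and HYMAI: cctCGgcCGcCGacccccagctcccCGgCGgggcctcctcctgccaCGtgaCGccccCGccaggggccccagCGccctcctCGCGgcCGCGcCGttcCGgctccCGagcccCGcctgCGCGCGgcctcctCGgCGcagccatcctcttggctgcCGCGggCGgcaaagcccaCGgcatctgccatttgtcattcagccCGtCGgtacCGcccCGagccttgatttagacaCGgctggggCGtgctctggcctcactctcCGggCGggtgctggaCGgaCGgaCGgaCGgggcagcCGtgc
MEST: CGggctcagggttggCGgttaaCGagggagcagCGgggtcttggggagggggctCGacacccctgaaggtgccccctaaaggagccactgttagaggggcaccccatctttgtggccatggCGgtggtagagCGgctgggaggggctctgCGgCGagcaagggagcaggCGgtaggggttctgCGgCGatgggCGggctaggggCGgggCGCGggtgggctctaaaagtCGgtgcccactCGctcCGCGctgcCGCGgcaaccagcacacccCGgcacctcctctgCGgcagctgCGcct
MEG3: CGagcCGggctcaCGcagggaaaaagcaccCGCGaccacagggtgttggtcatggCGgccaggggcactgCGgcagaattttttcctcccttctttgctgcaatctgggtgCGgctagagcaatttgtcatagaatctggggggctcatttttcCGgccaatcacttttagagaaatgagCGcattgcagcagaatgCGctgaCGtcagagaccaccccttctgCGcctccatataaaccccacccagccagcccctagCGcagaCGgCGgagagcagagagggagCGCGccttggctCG

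The PLAGL1 window held 39 CpG and 75.7% G and C, and 8.71% of the 35116 windows in the table held at least as many CpG. Over all windows the median was 14. The other PLAGL1 windows held 31, 3, 3 and 2 CpG. The MEST window held 25 CpG, a count reached by 32% of windows, and the MEG3 window 19, reached by 42.9%. The other MEST windows held 22, 22, 16 and 13 CpG and the other MEG3 windows 18 and 17. Those shown are thus the most CpG-rich windows of their genes, while the percentages count all windows. The H19 window, not shown, held 6, which 66.3% of windows reach. Of 4 short motifs searched on both strands, GGGGCCCC, the core bound by the PLAGL1 protein itself, occurred once in the PLAGL1 window and in 1.95% of all windows. ATGGCGG, the core of YY1 sites, occurred once in the MEST and once in the MEG3 window, against 5.55% of all windows. The MEG3 window also held TATAAA, the TATA box found in 11.5% of windows, and TGACGTCA, the cAMP response element found in 1.85%. ATGGCGG and TGACGTCA each contain a CpG, so they overlap the CpG counted above. A match describes the letters of the window and shows no binding.

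Values are array signals on a linear scale on which each array's mean, trimmed by 2% at each end, was 500 to 500.1. Array medians were 69.2 to 79.4 in the undifferentiated groups, 85.1 in both untreated embryoid body arrays and 102 in both treated ones. A gene was tested where at least 2 arrays lay above their own median, which left 14072 genes. Level differences were fitted with limma on log2 signals over all 8 arrays. A gene was called at a Benjamini-Hochberg adjusted p under 0.05 over all genes tested. Summed over 13 pluripotency genes, the signal was 148000 to 156400 in undifferentiated cells and 97630 to 114000 in embryoid bodies. Of the 13, 8 were called lower in embryoid bodies at 0 mM and 10 at 20 mM, where 1, GDF3, was called higher. SOX2 was at 17380 in both untreated groups. All 14 tested endoderm, yolk sac and liver genes and 11 of 12 mesoderm and mesenchyme genes were called higher in embryoid bodies at both doses, though several passed the filter only through those arrays. Of 11 tested neuroectoderm and neuron genes 9 were called higher at each dose, and 1 lower at 20 mM. Of 5 tested trophoblast genes 4 were called higher and 1 lower at each dose. Some of these too passed the filter only with the embryoid body arrays. Among all genes tested, 28.0% were called higher and 24.7% lower at 0 mM, and 29.2% and 27.1% at 20 mM. Sums for 15 endoderm genes were 1206 to 1616 in undifferentiated cells and 47350 to 61980 in embryoid bodies, so each stage difference below compares mixtures of different cell types. In such bulk samples fewer cells of a type and less RNA per cell cannot be told apart. For 4 of the 8 arrays, all those of 1 of the 2 stages, the RNA did not match the labelled line. A difference between stages therefore cannot be told apart from a difference between lines, and no stage comparison could be made without these arrays, whereas each ethanol comparison lies within a stage. A difference between the ethanol effects of the stages likewise cannot be told apart from a difference between lines.

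Embryoid bodies carried more RNA of most of these genes. At 0 mM ethanol NNAT, PLAGL1, DLK1, MEST and CDKN1C were higher than in undifferentiated cells, by 51.9-fold to 2.02-fold, and at 20 mM PEG10 and MEG3 passed the test as well. That is 5 of 7 tested genes called at 0 mM, where 52.8% of all genes were called, 28.0% higher and 24.7% lower. At 20 mM it is 7 of 7, where 56.3% of all genes were called, 29.2% higher and 27.1% lower. None of the 7 was called lower at either dose. The median log2 difference was 1.10 for the 7 genes and 0.0166 for all genes at 0 mM, and 1.18 against 0.0166 at 20 mM. The arrays of the 2 stages did not overlap for any of the 7, as was the case for 78.4% of all genes at 0 mM and 77.2% at 20 mM. NNAT passed the filter on low signals only through its embryoid body arrays and so had to differ, and PEG3 did not pass it. Setting every array to the same median, in place of the deposited scale, lowered the median log2 difference of all genes to -0.266 at 0 mM and -0.399 at 20 mM. Under that scaling 30.1% of the calls at 0 mM were higher, against 53.2% on the deposited scale, and 25% against 51.9% at 20 mM, while PEG10 and MEG3 were no longer called at 20 mM.

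**Figure D1:**
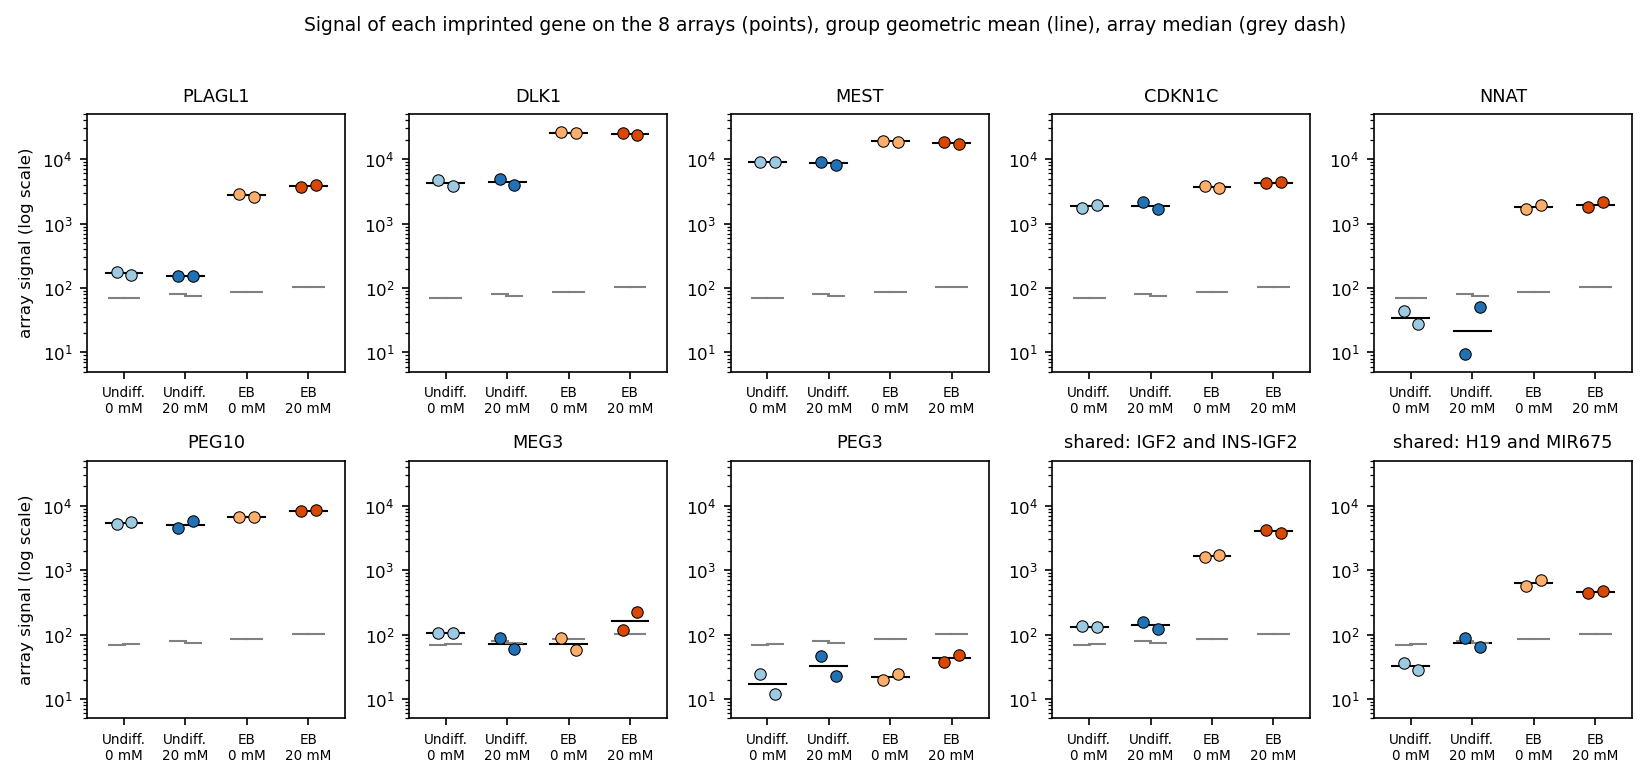
Array signal on a log scale (y axis) of the main probe set of each gene, and of 2 shared probe sets, on the 8 arrays grouped by stage and ethanol dose (x axis); points are arrays, black lines group geometric means and grey dashes the array medians. PLAGL1 lies at 151 to 178 in undifferentiated cells and at 2630 to 3980 in embryoid bodies, while PEG3 lies under the array median throughout.

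PLAGL1, also known as ZAC1, is a zinc finger transcription factor of chromosome 6 that arrests the cell cycle and regulates other imprinted genes. Its main probe set, 207002_s_at, read 178 and 158 in untreated undifferentiated cells, 151 and 155 in treated ones, 2880 and 2630 in untreated embryoid bodies and 3720 and 3980 in treated ones. Every embryoid body array lay far above every undifferentiated array, and the treated embryoid bodies lay above the untreated. The difference between stages was 4.04 ± 0.0925 (log2, SE; 16.4-fold; adjusted p = 1.36e-05) at 0 mM and 4.65 (25.1-fold; adjusted p = 7.64e-06) at 20 mM. The other PLAGL1 probe sets, 209318_x_at and 207943_x_at, differed by 3.90 and 2.79 at 0 mM in a fit in which each of 30510 probe sets was a feature, of which 45.3% were called. HYMAI, the noncoding RNA that starts in the same window, read 12, 10.7, 3.72 and 4.57 on the undifferentiated arrays and 123, 170, 126 and 155 on the embryoid body arrays. It differed by 3.67 ± 0.2 at 0 mM (12.7-fold; adjusted p = 0.000113) and by 5.08 at 20 mM, a fold that rests on undifferentiated signals well under the array median. HYMAI passed the low-signal filter only through embryoid body arrays and so had to be higher there.

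DLK1 encodes a membrane protein of the Delta and Notch family that keeps progenitor cells from differentiating, for example into adipocytes, and whose cleaved ectodomain circulates. The cluster on chromosome 14 that holds it also holds MEG3 and DIO3. Signals of 209560_s_at were 4680, 3890, 5010 and 3980 in undifferentiated cells, against 26300, 25100, 25700 and 24000 in embryoid bodies. The stages were cleanly apart and the doses overlapped within each stage. The difference was 2.59 ± 0.143 (6.03-fold; adjusted p = 0.00012) at 0 mM and 2.48 (5.56-fold; adjusted p = 0.000127) at 20 mM. The dimmer second probe set, 235600_at, read 11.2 to 57.5 in undifferentiated cells and 224 to 282 in embryoid bodies, and passed the filter only through the latter. It was 2.99 ± 0.597 higher at 0 mM (adjusted p = 0.0102), a call lost without untreated embryoid body replicate B (adjusted p = 0.0529), and 3.80 higher at 20 mM. DIO3, the enzyme that inactivates thyroid hormone, read 38 to 83.2 in undifferentiated cells and 832 to 891 in embryoid bodies, a difference of 3.90 ± 0.342 at 0 mM (15.0-fold; adjusted p = 0.000486).

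MEG3, the maternally expressed long noncoding RNA of that cluster, gave readings that depended on the probe set. Its brightest probe set, 229557_at, read 107 and 107 in untreated and 87.1 and 60.3 in treated undifferentiated cells, 89.1 and 57.5 in untreated embryoid bodies and 117 and 224 in treated ones. These signals lie near the array medians and 2 of the 8 arrays fell under theirs. The difference between stages was -0.58 ± 0.37 at 0 mM (adjusted p = 0.233) and 1.16 ± 0.37 at 20 mM (2.24-fold; adjusted p = 0.0389). The 20 mM call held under 8 of 19 alternatives. It was lost without untreated undifferentiated replicate A or B (adjusted p = 0.0642 and 0.0645), without treated undifferentiated replicate A or B (0.0528 and 0.162) and without treated embryoid body replicate B (0.157). A second probe set, 210794_s_at, read 15.1, 4.47, 11.2 and 6.46 in undifferentiated cells, against 158, 112, 85.1 and 132 in embryoid bodies. It was higher by 4.02 ± 0.619 at 0 mM (16.2-fold; adjusted p = 0.00424) and by 3.64 at 20 mM (adjusted p = 0.00518). The other 8 MEG3 probe sets lay under the array median on all 8 arrays. The sign at 0 mM thus differs between the 2 probe sets that could be tested, and 210794_s_at passed the low-signal filter only through embryoid body arrays, so it had to be higher there.

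IGF2 is a fetal growth factor that signals through IGF1R and is cleared by IGF2R, itself the product of an imprinted gene in mouse. All 3 probe sets that cover it are annotated also to the read-through gene INS-IGF2, so their RNA cannot be assigned to IGF2 alone, and their fit was added after the values had been seen. The brightest, 202409_at, read 135, 129, 158 and 123 in undifferentiated cells, 1620 and 1700 in untreated embryoid bodies and 4270 and 3800 in treated ones. The 3 levels are apart from one another, undifferentiated, untreated embryoid body and treated embryoid body. The stage difference was 3.65 ± 0.141 at 0 mM (12.6-fold; adjusted p = 8.33e-05) and 4.85 at 20 mM (28.8-fold). The probe sets 202410_x_at and 210881_s_at, under 13 in every undifferentiated array, were 4.97 and 4.25 higher at 0 mM, and passed the filter only through embryoid body arrays. IGF2R read 1510 to 2140 in undifferentiated cells and 3550 to 4170 in embryoid bodies, 1.08 ± 0.181 higher at 0 mM (2.11-fold; adjusted p = 0.00443), a call lost when probe sets of the _s_at and _x_at kinds were left out (0.60 higher; adjusted p = 0.217). IGF1R differed by 0.00 ± 0.149 at 0 mM and by 0.08 at 20 mM.

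H19 is a maternally expressed noncoding RNA that lies beside IGF2 on chromosome 11 and is the host of the microRNA MIR675. Both of its probe sets are annotated to MIR675 as well. Signals of 224646_x_at were 36.3 and 28.2 in untreated and 89.1 and 63.1 in treated undifferentiated cells, against 562 and 692 in untreated and 447 and 468 in treated embryoid bodies. Embryoid bodies were above undifferentiated cells on every array. The difference was 4.29 ± 0.215 at 0 mM (19.5-fold; adjusted p = 0.00016) and 2.61 at 20 mM (6.10-fold). The second, 224997_x_at, differed by 2.03 at 0 mM (4.07-fold; adjusted p = 0.00027) and by 1.71 at 20 mM. Of the undifferentiated signals of either probe set, only that of treated replicate A lay above its array median. Both probe sets therefore passed the low-signal filter only with the embryoid body arrays. The folds at 0 mM rest on undifferentiated signals under the array median.

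CDKN1C encodes p57, an inhibitor of cyclin-dependent kinases that slows proliferation and is lost or mutated in overgrowth disorders. Its main probe set, 213348_at, read 1740, 1950, 2190 and 1660 in undifferentiated cells, 3890 and 3550 in untreated embryoid bodies and 4270 and 4370 in treated ones. It was higher in embryoid bodies by 1.01 ± 0.146 (2.02-fold; adjusted p = 0.00259) at 0 mM and by 1.18 (2.27-fold; adjusted p = 0.00129) at 20 mM. The probe sets 219534_x_at, 213182_x_at and 216894_x_at were 1.28, 0.93 and 1.18 higher at 0 mM and each was called. The call of 213182_x_at was lost without untreated embryoid body replicate B (adjusted p = 0.0519). The fifth, 219533_at, lay under the array median throughout. In the same cluster PHLDA2, a restraint on placental growth, went the other way, reading 1020 to 1150 in undifferentiated cells and 490 to 617 in embryoid bodies. That is a difference of -0.85 ± 0.121 at 0 mM (adjusted p = 0.00249) and -1.03 at 20 mM (adjusted p = 0.00107). KCNQ1, a potassium channel subunit, fell by 1.31 at 0 mM (adjusted p = 0.00267) and by 1.40 at 20 mM. Averaging each gene's probe sets ended both calls at 0 mM, with PHLDA2 at -0.26 (adjusted p = 0.774) and KCNQ1 still at -1.25 (adjusted p = 0.0602).

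MEST, also called PEG1, encodes a protein of the alpha/beta hydrolase fold and is named for its expression in the mesoderm of the mouse embryo. Its single probe set, 202016_at, read 8910 and 8910 in untreated and 9120 and 8130 in treated undifferentiated cells, and 19500 and 18600 in untreated and 18600 and 17400 in treated embryoid bodies. The stages did not overlap, and the doses did within each stage. The difference was 1.10 ± 0.0855 (2.14-fold; adjusted p = 0.000338) at 0 mM and 1.06 (2.09-fold; adjusted p = 0.000325) at 20 mM. NNAT encodes neuronatin, a small membrane proteolipid of the endoplasmic reticulum found in developing brain and in endocrine and adipose cells. Its single probe set, 204239_s_at, read 43.7, 27.5, 9.33 and 50.1 in undifferentiated cells, against 1700, 1910, 1820 and 2140 in embryoid bodies. NNAT passed the low-signal filter only through its embryoid body arrays and so had to be higher there. All 4 undifferentiated signals lie under the array median, so the size of the fold is poorly fixed. On the fitted scale it was 5.70 ± 0.745 (51.9-fold; adjusted p = 0.00183) at 0 mM and 6.51 (91.2-fold; adjusted p = 0.000984) at 20 mM. BLCAP, in whose intron NNAT lies, was 0.51 higher at 0 mM (adjusted p = 0.0103) and 0.61 higher at 20 mM (adjusted p = 0.00479). The BLCAP call at 0 mM was lost without untreated undifferentiated replicate A (adjusted p = 0.0511) and without untreated embryoid body replicate A (0.0534). Median centring ended it at both doses.

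PEG10 derives from a retrotransposon, encodes a Gag-like protein and is required for the placenta in mouse. Its main probe set, 212094_at, read 5130, 5620, 4470 and 5750 in undifferentiated cells, 6760 and 6760 in untreated embryoid bodies and 8320 and 8510 in treated ones. The 0 mM difference of 0.33 ± 0.13 (1.26-fold; adjusted p = 0.0761) missed the threshold. It passed under 8 of 21 alternatives, among them without treated undifferentiated replicate A or B (adjusted p = 0.0166 in each case). At 20 mM the difference was 0.73 ± 0.13 (1.66-fold; adjusted p = 0.00481), a call lost on median centring (0.32; adjusted p = 0.118). The second probe set, 212092_at, read 676 to 759 in undifferentiated cells and 955 to 1050 in embryoid bodies, and was 0.47 ± 0.097 higher at 0 mM (adjusted p = 0.0119) and 0.48 higher at 20 mM (adjusted p = 0.00945). The first of these calls was lost without untreated undifferentiated replicate A (adjusted p = 0.0519) and without untreated embryoid body replicate A or B (0.0526 and 0.0626), the second without treated embryoid body replicate A (0.0533). Median centring ended both, at 0.18 (adjusted p = 0.237) and 0.0664 (adjusted p = 0.656). SGCE, a sarcoglycan gene that starts head to head with PEG10, read 1070 to 1290 in undifferentiated cells and 2140 to 2510 in embryoid bodies. It was 0.93 ± 0.0893 higher at 0 mM (adjusted p = 0.000652) and 1.01 higher at 20 mM. PEG3, a zinc finger gene of chromosome 19, read 12 to 47.9 in its brighter probe set, below the median of every array, and was not tested. A probe set shared by ZIM2 and PEG3 differed by -0.37 at 0 mM (adjusted p = 0.308).

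**Figure D2:**
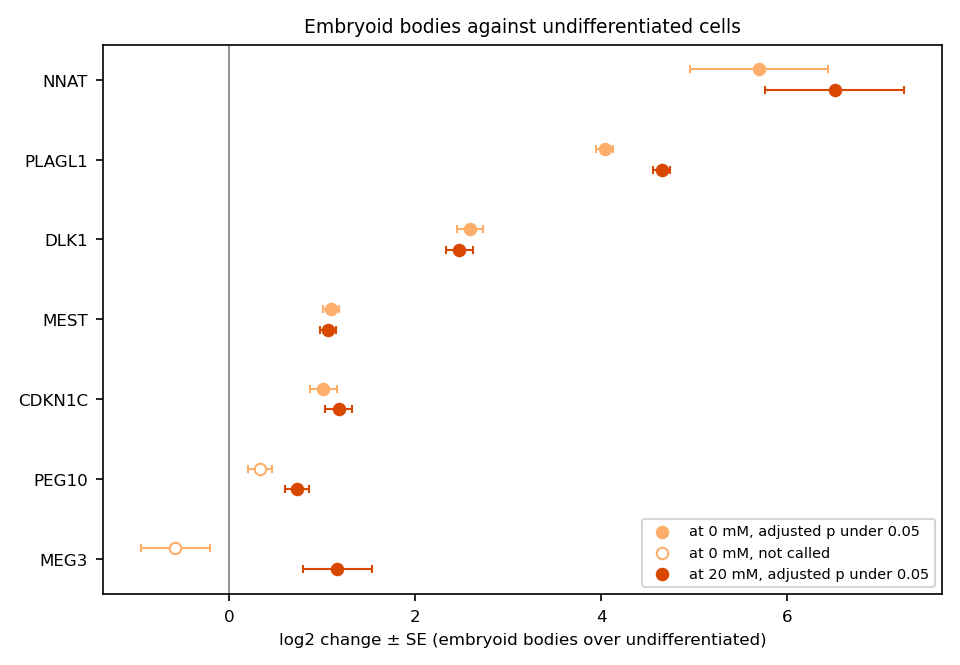
Log2 difference with its SE (x axis) between embryoid bodies and undifferentiated cells for the 7 tested genes (y axis), at 0 and at 20 mM ethanol; filled points passed an adjusted p of 0.05. NNAT and PLAGL1 lie farthest to the right, and MEG3 lies on opposite sides of 0 at the 2 doses.

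None of the 7 tested genes passed the test for ethanol at either stage. In undifferentiated cells limma called 0 of 7, and 1 of all 14072 genes (0.00711%, higher; 0% lower). None of the 7 had an unadjusted p under 0.05, against 986 of all genes. Differences ran from -0.68 ± 0.745 (NNAT; adjusted p = 0.926) to 0.07 (DLK1; adjusted p = 0.975), and the arrays of the doses did not overlap for PLAGL1 and MEG3, 2 of 7, against 27.5% of all genes. In embryoid bodies limma again called 0 of 7, against 10 of all genes (0.0711%; 0.0426% higher and 0.0284% lower). Under 3 alternatives it called 1 member. PLAGL1 was called higher in fits that called 477 of 9041 and 959 of 14072 genes, and MEST lower in a fit that called 3880 of 14072. The fit of 9041 genes held 6 members, without MEG3. In the main fit PLAGL1 and MEG3 had an unadjusted p under 0.05, as did 3137 genes, or 22.3%. The arrays of the doses did not overlap for PLAGL1, MEG3, CDKN1C and PEG10, 4 of 7, against 57.5% of all genes.

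In embryoid bodies PLAGL1 read 2880 and 2630 without and 3720 and 3980 with ethanol in its main probe set, a difference of 0.48 ± 0.0925 (1.40-fold; adjusted p = 0.0899). It was called under 2 of 20 alternatives, over which the adjusted p ran from 0.0315 to 0.329 and the difference from 0.22 to 0.67. All 3 PLAGL1 probe sets pointed the same way, by unequal amounts. Signals of 209318_x_at were 2340 and 2630 without and 3090 and 3310 with ethanol, a difference of 0.37 (1.29-fold; adjusted p = 0.199). Those of 207943_x_at were 1170 and 1380 without and 2750 and 2950 with ethanol. That is 1.16 ± 0.12 (2.24-fold; adjusted p = 0.0815 over probe sets), of which 0.00656% were called. In undifferentiated cells the main PLAGL1 probe set differed by -0.13 (adjusted p = 0.858). The difference between the ethanol effects of the stages was 0.61 ± 0.131 (adjusted p = 0.256), and no gene at all was called in that contrast (0%; 1828 genes had an unadjusted p under 0.05).

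The probe set of IGF2 and INS-IGF2, 202409_at, showed the largest ethanol difference of those annotated to these genes in embryoid bodies. From 1620 and 1700 without ethanol to 4270 and 3800 with it, the difference was 1.28 ± 0.141 (2.43-fold; adjusted p = 0.0815). It passed under 3 of 17 alternatives, over which the adjusted p ran from 0.00593 to 0.292. The shared probe sets 202410_x_at and 210881_s_at differed by 0.61 (1.53-fold; adjusted p = 0.166) and 0.66 (adjusted p = 0.578). In undifferentiated cells 202409_at differed by 0.08 (adjusted p = 0.965). For the H19 and MIR675 probe set 224646_x_at the values were 1.23 (2.34-fold; adjusted p = 0.365) in undifferentiated cells, where 3 of the 4 signals lie under the array median, and -0.45 (adjusted p = 0.334) in embryoid bodies. Its second probe set differed by 0.30 and -0.02.

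Among the remaining genes MEG3 differed by 1.18 ± 0.37 in embryoid bodies (2.27-fold; adjusted p = 0.158) in 229557_at, from 89.1 and 57.5 to 117 and 224, and by -0.33 in 210794_s_at. PEG10 differed by 0.32 ± 0.13 (1.25-fold; adjusted p = 0.227) in 212094_at and by -0.02 in 212092_at. CDKN1C differed by 0.22 ± 0.146 (adjusted p = 0.428). Its other probe sets that were called between stages differed by 0.02, -0.02 and 0.08, and none was called for ethanol. The differences between probe sets of 1 gene were not tested. DLK1 differed by -0.05 (adjusted p = 0.872), MEST by -0.08 (adjusted p = 0.609) and NNAT by 0.13 (adjusted p = 0.935). The probe set shared by ZIM2 and PEG3 read 63.1 and 102 without and 155 and 135 with ethanol in embryoid bodies. That is 0.85 ± 0.268 (1.80-fold; adjusted p = 0.207 over probe sets), against 0.32 (adjusted p = 0.9) in undifferentiated cells. Of the neighbours, TFPI2, a protease inhibitor near PEG10, read 977 and 1020 without and 1550 and 1620 with ethanol in embryoid bodies, 0.66 ± 0.0798 (1.58-fold; adjusted p = 0.0592). It was called under 5 of 20 alternatives. HYMAI differed by -0.05, DIO3 by 0.07 and SGCE by -0.12. The array median and the summed mesoderm, endoderm and pluripotency markers differed between doses in embryoid bodies. Summed signals went from between 48140 and 49630 to between 73410 and 74460 for 14 mesoderm and mesenchyme genes, and from between 47350 and 47630 to between 60840 and 61980 for the endoderm genes. Among all genes tested the median difference was 0.0166, 50.6% were positive and 0.0711% were called. Over 12 tested mesoderm genes the median difference was 0.689, 12 of 12 were positive and 0 were called. Of 14 endoderm genes 12 were positive and 1 was called, AHSG (1.61; adjusted p = 0.00953). Pluripotency sums went from between 111500 and 114000 to between 97630 and 101500, with 2 of 13 positive and 0 called. Neuroectoderm sums went from between 43970 and 44940 to between 42630 and 43270, with 6 of 11 positive and 0 called, and trophoblast sums were 6343 to 6668 without and 6420 to 6670 with ethanol. Their part in the differences of the imprinted genes was not tested.

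**Figure D3:**
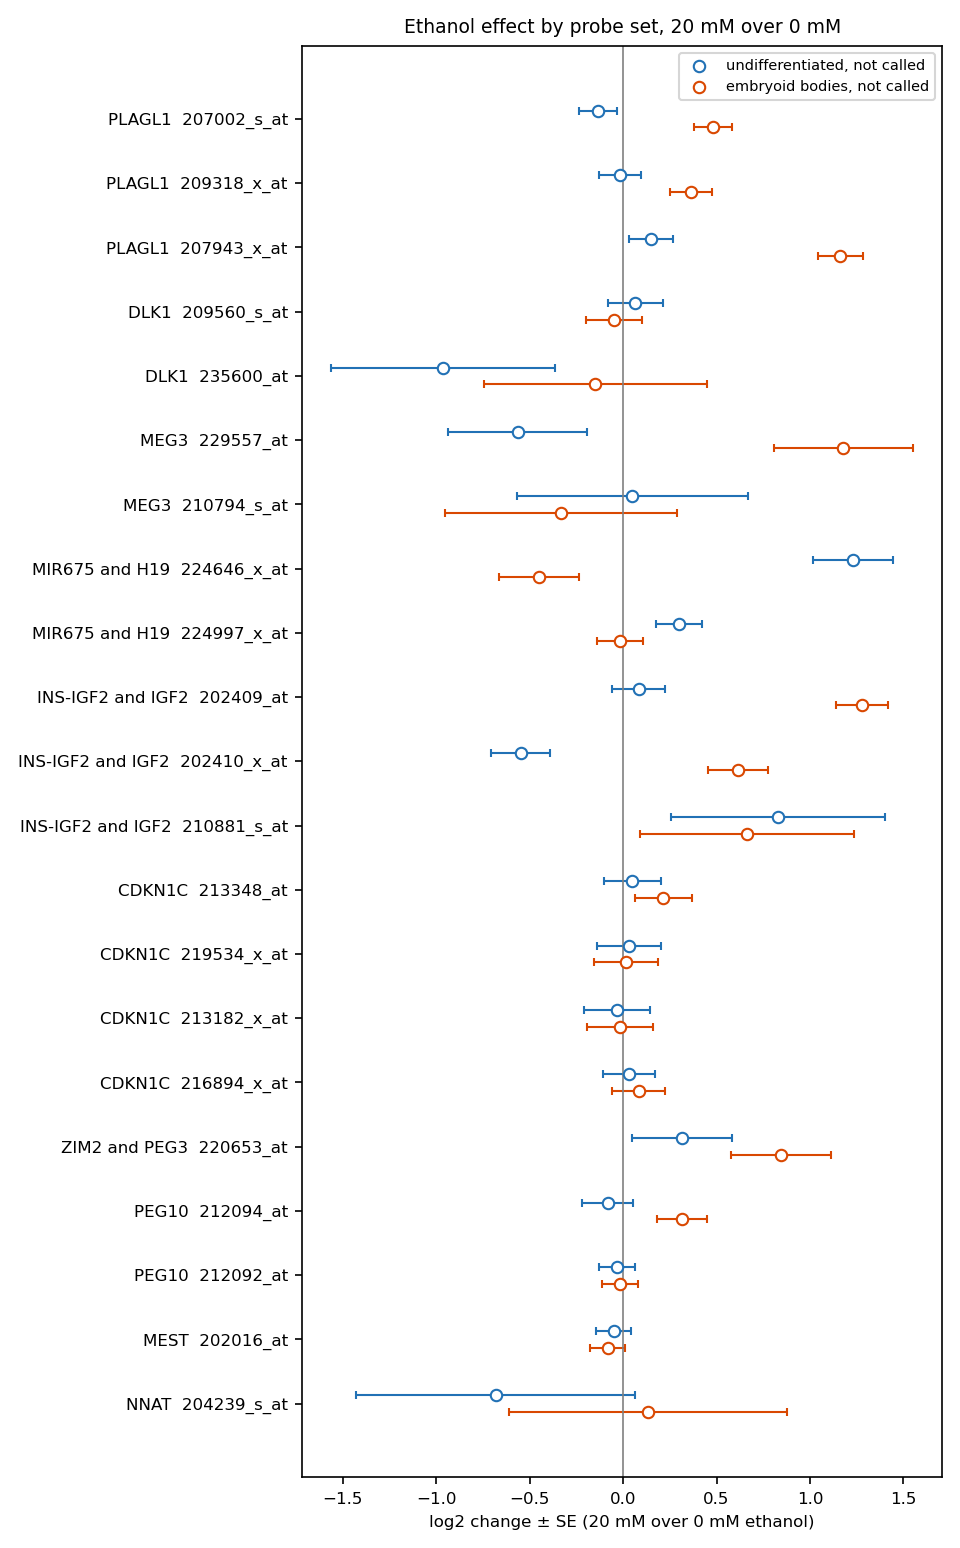
Log2 difference with its SE (x axis) between 20 and 0 mM ethanol for every tested probe set annotated to the genes (y axis), in undifferentiated cells and in embryoid bodies; no point passed an adjusted p of 0.05. The 3 PLAGL1 probe sets lie at 0.48, 0.37 and 1.16 in embryoid bodies, and 202409_at of IGF2 and INS-IGF2 at 1.28.

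A wider list of other imprinted genes held calls in both directions, as did all genes (28.0% higher and 24.7% lower at 0 mM, 29.2% and 27.1% at 20 mM). Of 60 listed, 36 were tested, and 15 were called higher and 9 lower in embryoid bodies at 0 mM, with a median of 0.149, and 18 higher and 7 lower at 20 mM, with a median of 0.332. No listed gene was called for ethanol at either stage, where the medians were -0.0083 and 0.0498. Of all genes, ethanol calls made up only 0.00711% in undifferentiated cells and 0.0711% in embryoid bodies. HYMAI, GLIS3, DIO3 and L3MBTL1, a polycomb-like protein, were the called genes of smallest p at 0 mM, of which HYMAI and GLIS3 passed the filter only through embryoid body arrays and so had to be higher there. GLIS3, a zinc finger factor, was 2.48 higher and L3MBTL1 1.48 higher. The GLIS3 call did not survive the loss of any single embryoid body array, which put another probe set in first place (adjusted p = 0.269, 0.216, 0.154 and 0.155), and the L3MBTL1 call when its probe sets were averaged (0.0645). GRB10, an adaptor that restrains insulin and IGF receptor signalling, was lower by -0.35 (adjusted p = 0.0173). It was no longer called without untreated undifferentiated replicate A or B (0.0639 and 0.0617) or untreated embryoid body replicate A or B (0.0646 and 0.0825). Around the members, PPP1R9A was 0.90 higher and COPG2 fell by 0.58 (adjusted p = 0.0101), a call lost without untreated embryoid body replicate A (0.0582), with the sign turned and no call when its probe sets were averaged (0.70). CPA4 and OSBPL5 were not called at 0 mM. Within single clusters at 0 mM, then, CDKN1C was called higher beside PHLDA2 and KCNQ1 called lower, and MEST higher beside COPG2 lower. DLK1 and DIO3 were both called higher, while MEG3 of that cluster was at -0.58 and not called in its main probe set. SGCE and PPP1R9A were called higher beside PEG10 and TFPI2, which were not called. HYMAI and NNAT passed the filter only through embryoid body arrays, so their direction beside PLAGL1 and BLCAP was set by it.

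**Figure D4:**
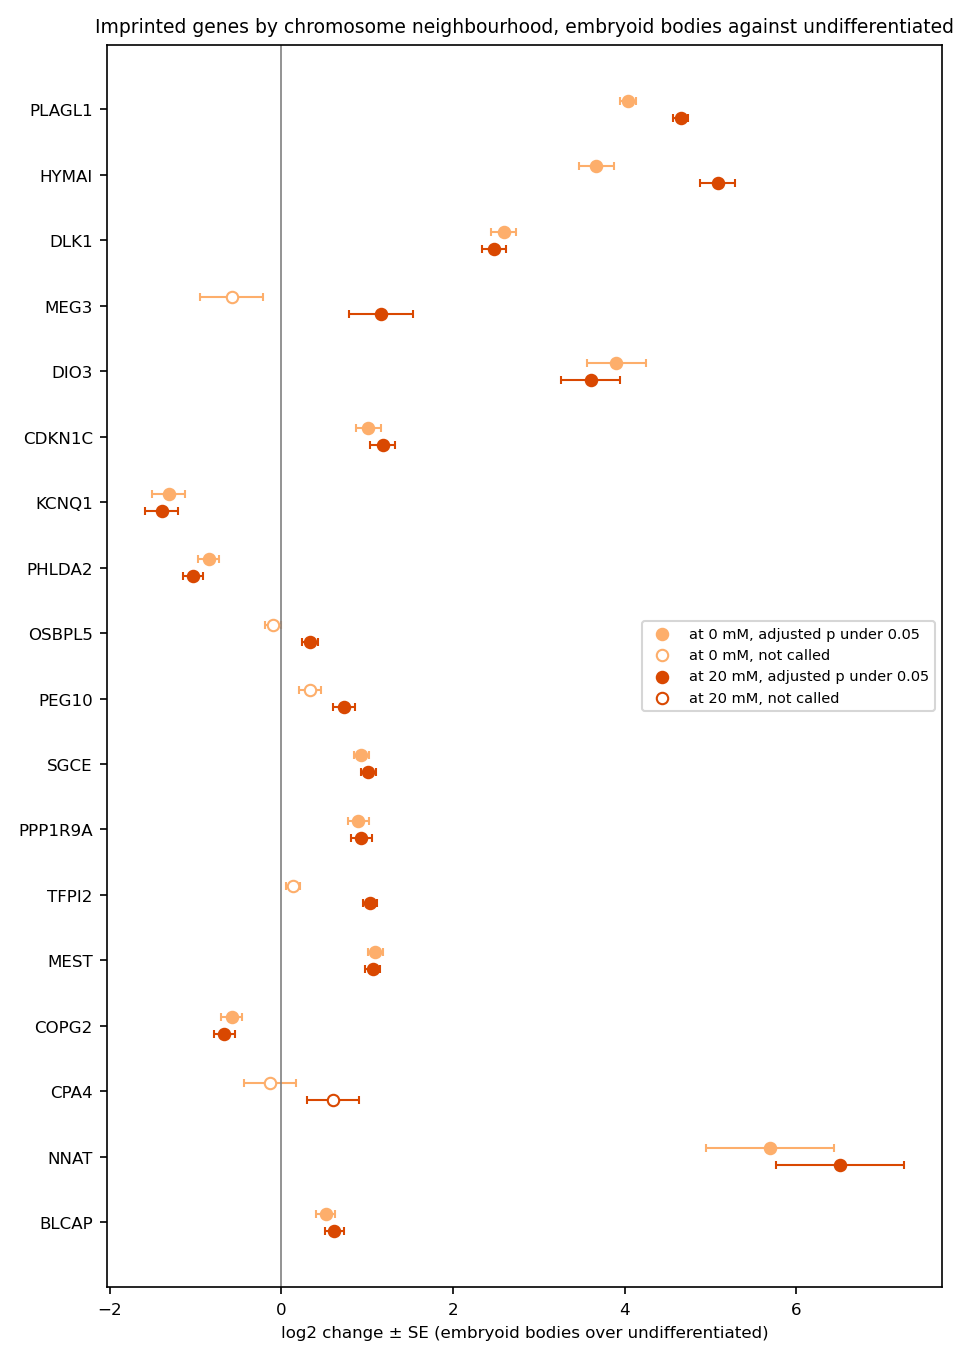
Log2 difference with its SE (x axis) between embryoid bodies and undifferentiated cells at 0 and 20 mM ethanol for imprinted genes and their listed neighbours within 1 Mb, in chromosomal clusters (y axis); filled points passed an adjusted p of 0.05. KCNQ1, PHLDA2 and COPG2 lie left of 0 beside CDKN1C and MEST, which lie right of it.

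Of the factors that keep imprints, 17 were tested among 22 listed. At 0 mM 3 were called higher and 4 lower, with a median of -0.0664, where 52.8% of all genes were called, 28.0% higher and 24.7% lower. At 20 mM 4 were called higher and 5 lower, where 56.3% of all genes were called, 29.2% higher and 27.1% lower. TRIM28, the corepressor that protects methylated imprints, fell by 0.33 at 0 mM (adjusted p = 0.0103) and by 0.51 at 20 mM (adjusted p = 0.0018). The 0 mM call was lost without untreated embryoid body replicate A or B (0.0531 and 0.0535). ZFP57, its DNA-binding partner, read 5.37 to 35.5 and was not tested. ZNF445, a second such zinc finger, was 0.68 higher (adjusted p = 0.00116), and averaging its probe sets ended that call (0.228). HELLS, a chromatin remodeller needed for DNA methylation, fell by 0.96 (adjusted p = 0.00161), and averaging its probe sets ended that call (0.102). TET2, which oxidises methylcytosine, was 1.38 higher, UHRF1, which recruits DNMT1, 0.53 higher, and CTCFL, a paralogue of the insulator protein CTCF, fell by 1.48. UHRF1 was no longer called on median centring (0.25; adjusted p = 0.0866).

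Among 33 tested partners of the members, 9 were called higher and 8 lower at 0 mM, with a median of 0, and 10 higher and 13 lower at 20 mM, against 52.8% and 56.3% of all genes called. FN1, the fibronectin gene, read 3240 to 5250 in undifferentiated cells and 27500 to 31600 in embryoid bodies and was 3.02 higher at 0 mM. CDK6, a kinase of the G1 phase, was 1.94 higher, a value of 0.09 (adjusted p = 0.85) when its probe sets were averaged. NOTCH2, a receptor of the pathway that DLK1 modulates, was 0.93 higher, and 0.40 (adjusted p = 0.473) in its most variable probe set. IGF2BP3, which binds IGF2 mRNA, fell by 0.60 (adjusted p = 0.00257), and by 0.15 (adjusted p = 0.61) without probe sets of the _s_at and _x_at kinds. None of the 33 was called for ethanol at either stage, against 0.00711% of all genes in undifferentiated cells and 0.0711% in embryoid bodies.

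Over the 8 arrays NNAT, PLAGL1 and DLK1 varied most among the members, with an SD of log2 signal of 3.34, 2.33 and 1.36. The genes whose log2 signal followed them most closely over these 8 arrays, as a description, were SULF1 (Pearson r = 0.9983), SLC16A9 (0.9978) and DPAGT1 (0.9971) for NNAT. For PLAGL1 they were HAPLN1 (0.9996), LIX1 (0.9994) and PTX3 (0.9993), and for DLK1 PERP (0.9995), VIM (0.9993) and SCARB2 (0.9991). These signals take 2 main levels that part with the stage of the arrays, and such values are common: 413 genes had r above 0.99 with PLAGL1, 338 with DLK1 and 63 with NNAT.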

How the data were processed

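Expression was measured on 8 arrays, 2 for each combination of stage and ethanol dose, grouped by the labels. The deposited values are log10 signals, by the values themselves: they ran from -1.46 to 4.61, with an equal trimmed mean on every array. The submitters' processing notes name RMA, with no version; RMA yields neither such negative values nor an equal trimmed mean, and the plan had assumed log2 values. Log10 was converted to log2 without further normalisation. Of 54675 probe sets, 41097 name 1 gene in the platform annotation, 1801 several and 11777 none; symbols were updated through RefSeq gene identifiers. One probe set per gene, with the highest mean, was fitted in R 4.3.3 with limma 3.58.1 (1 mean per group, lmFit and eBayes, 4 residual degrees of freedom), after checking the fit on simulated data. Adjusted p-values are Benjamini-Hochberg over all 14072 genes tested. The number of arrays limits the precision. Replicates of a group correlated by 0.945 to 0.951 over probe sets. Named were all members, 8 set partners and neighbours, listed neighbours within 1 Mb, the up to 4 called genes of smallest p in each list and contrast, and the 3 genes most like each of the 3 most variable members, without genes that tell lines apart. Members and lists were chosen with earlier results of these data known. Alternatives covered the filter, the probe set, the scaling, the variance model, the arrays fitted, a replicate block and leaving out each array.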

Additional observations from a re-analysis of the deposited data

Results flagged for a closer look

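The probe set 202409_at, annotated to INS-IGF2 and IGF2 and so outside the genes tested 1 by 1, was 2.43-fold brighter in embryoid bodies with 20 mM ethanol than in those without (4270 and 3800 against 1620 and 1700), a signal in data that the gene-level comparison does not use. In the limma fit over probe sets its adjusted p was 0.0815, and the same probe set differed by 0.08 on the log2 scale in undifferentiated cells; the difference between those effects was 1.20 ± 0.2 (adjusted p = 0.318).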

How the results depend on the processing

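The stage calls of PLAGL1, DLK1, MEST, CDKN1C and NNAT held under every alternative that gave them a value (20 or 21 each). NNAT passed the low-signal filter only through its embryoid body arrays, so its calls in filtered fits add no support. Counts of members called moved by over 1.5 times in 4 of 104 settings (5 or 6 at 0 mM and 5 to 7 at 20 mM otherwise): 3 in place of 5 at 0 mM without _x_at and _s_at probe sets, where PLAGL1 and NNAT have none left, and for ethanol in embryoid bodies 1 in place of 0 with the 75th percentile filter (PLAGL1, adjusted p = 0.0341), with a trended and robust variance (PLAGL1, 0.0315) and on median centring (MEST, -0.35, 0.0284). With the replicate block 5 and 6 members were called between stages at 0 and 20 mM (7210 and 7785 of 14072 genes) and 0 members and 0 genes in the other 3 contrasts; same-lettered arrays were not paired (correlations of deviations -0.026 to 0.049). Leaving out 1 array at a time gave 5 to 6 members at 0 mM, 6 to 7 at 20 mM (5330 to 7774 of all genes) and 0 to 0 for ethanol. Over all genes, ethanol calls in embryoid bodies were 10, but 477 with the 75th percentile filter, 3880 on median centring (4.43% higher, against 60%), 959 with a trended variance, 62 after quantile normalisation, 56 on log2(signal + 16), 0 with the block or only the groups compared, and 0 to 4 without any 1 array; in undifferentiated cells they were 1, but 27 and 24 without untreated replicate A or B, 7 and 34 without treated replicate A or B, and 0 without any 1 embryoid body array. Reversed, all uncalled unless stated, were the following log2 differences. Mean of probe sets: CDKN1C -0.17 and DLK1 0.35 (difference of ethanol effects), DLK1 -0.45 (undifferentiated), COPG2 0.70 and 0.41 (stage), GRB10 0.054 and PHLDA2 0.0609 (stage at 20 mM). Most variable probe set: CDKN1C -0.0166, DLK1 0.81 and MEG3 -0.38 (difference), DLK1 -0.96 and MEG3 0.0498 (undifferentiated), MEG3 -0.33 (embryoid bodies) and 4.02 (stage at 0 mM, called, adjusted p = 0.00413), ZNF445 -0.083 (stage at 0 mM). Without _x_at and _s_at: DLK1 0.81 (difference) and -0.96 (undifferentiated). Median centring: CDKN1C -0.0498 and NNAT -0.13 (embryoid bodies), CDKN1C -0.083 and DLK1 -0.0664 (undifferentiated), OSBPL5 and ZNF445 -0.083 (stage at 20 mM). Quantile and cyclic loess: DLK1 0.0976 and 0.0745 and MEST 0.0592 and 0.0483 (embryoid bodies), MEST 0.082 and 0.0789 and, quantile only, DLK1 0.0311 (difference). Leaving out 1 array reversed values that ranged, for the difference, from -0.0332 to 0.37 (CDKN1C), -0.28 to 0.0498 (DLK1), -0.12 to 0.0498 (MEST) and -0.40 to 2.03 (NNAT), and in undifferentiated cells from -0.15 to 0.25 (CDKN1C), -0.10 to 0.23 (DLK1), -0.13 to 0.0332 (MEST), -1.89 to 0.53 (NNAT) and -0.27 to 0.10 (PEG10). The cause of these changes was not tested. MEG3 had no value with the 75th percentile filter or with averaged probe sets. Signals under the array median limit MEG3, PEG3 and undifferentiated NNAT.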
